A study of Mus musculus with 14 samples.

Results

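Mouse embryonic fibroblasts (MEFs, primary connective tissue cells grown from embryos) that carried 3 reprogramming factors were compared with control cells on day 3, the earliest day profiled. The comparison rests on 4 of the 14 arrays of the series: the 2 arrays of cells transduced with the 3 factors Sox2, Klf4 and Oct4 (SKO) on day 3 and the 2 arrays of cells transduced with green fluorescent protein (GFP) virus on day 3. They were chosen by their titles alone. Each virus had 1 array of cells without and 1 of cells with vitamin C, so SKO minus GFP could be taken in 2 pairs that share no array. The other 10 arrays followed SKO cells on days 4, 5, 6, 8 and 10, and both GFP arrays are of day 3.

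The GFP control cells of day 3 carried the GFP retrovirus alone. The SKO cells of day 3 carried retroviruses for Sox2, Klf4 and Pou5f1, the gene that encodes Oct4. Cells of both groups were infected in 2 rounds and were moved on day 2, counted from the later round, to mouse embryonic stem cell medium with leukemia inhibitory factor (LIF). The treated arm of both groups had vitamin C at 50 µg/ml in that medium from day 2, so 1 day of exposure preceded lysis. All 4 groups therefore share the infection, the medium and LIF and differ in the viral cargo and in vitamin C. The labels used here name no mouse strain, embryo age or number of animals, and nothing says that the 4 cultures were derived from separate cell preparations. Retroviral delivery leaves cells that took up different combinations of viruses, and RNA was taken from the whole culture. Fewer cells of a kind and less RNA per cell cannot be told apart in such bulk samples.

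Sox2, Oct4 and Klf4 are transcription factors of the embryonic stem cell network. Together they can move fibroblasts toward an induced pluripotent state, a slow process in which fibroblast genes fall early, division speeds up, adhesion and growth factor genes change, and the cells' own stem cell network starts late. Vitamin C is a cofactor that keeps iron-dependent dioxygenases active, among them collagen prolyl hydroxylases and enzymes that demethylate histones and DNA.

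Values are the deposited RMA signals on the log2 scale, in which 1 unit is a 2-fold difference. Signals are quoted for GFP cells first and then for SKO cells, each in the order without, then with vitamin C. Differences are SKO minus GFP averaged over both pairs, ± the standard error from limma, and adjusted p-values come from limma with Benjamini-Hochberg adjustment over 19938 genes. A gene was called higher or lower when its adjusted p was under 0.05. Each condition had 1 array, so the error comes from how the vitamin C difference varies over the 7 virus-by-day levels of this 1 time course (6 residual degrees of freedom), and p-values measure only that spread.

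The arrays fit their labels for the delivered genes. Pou5f1 gave 4.05 and 4.10 in GFP cells and 11.19 and 11.31 in SKO cells, a difference of 7.17 ± 0.17 (adjusted p = 2.09e-11). Klf4, which fibroblasts also make, gave 7.43 and 7.51 and then 8.37 and 8.60, a difference of 1.01 ± 0.17 (adjusted p = 0.00128). Sox2 gave 4.28 and 4.81 and then 5.14 and 5.15, a difference of 0.60 ± 0.18 (adjusted p = 0.0337). Both SKO arrays lay above both GFP arrays for each factor, by very different amounts, and the call for Sox2 was lost without the untreated GFP array and without either SKO array. Which part of each transcript the array reads was not analysed here, so viral and cellular copies of these 3 genes cannot be told apart. The cells' identity was checked on 18 fibroblast markers, whose mean signal was 10.18 and 10.40 in GFP cells and 9.71 and 9.68 in SKO cells, where the medians of the 4 arrays over all probes were between 5.19 and 5.25. Of these markers, 9 were lower and 0 higher in SKO cells (median difference -0.57), where 8.43% of all genes were lower. On day 4, 6 were lower. Macrophage, endothelial, erythroid, skeletal muscle and adipocyte marker lists had means between 4.21 and 5.17 on the 4 arrays. Those of the neural and the cartilage and bone lists were between 4.89 and 5.47.

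One property of the SKO arrays bears on everything below. In a principal component analysis of the 14 arrays, the second component (20.1% of the variance) placed the SKO arrays of day 3 at -34.6 and -35.9, those of day 5 at -24.4 and -16.4, and those of day 4 at 4.08 and 9.62, next to the GFP arrays at 5.69 and 18.3. Scan dates or labelling batches were not used here, and the part of this component in the results was not tested. Values of SKO day 4 minus GFP are therefore given beside the day 3 values. That contrast uses the same GFP arrays and is no independent repeat. Both GFP arrays are of day 3, so contrasts with later SKO days also include more time in culture and longer vitamin C exposure. These cannot be told apart from the factors.

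SKO and GFP cells differed widely by day 3. Of 19938 genes, 1838 (9.22%) rose and 1681 (8.43%) fell in SKO cells relative to GFP cells, and the median difference of all genes was -0.04. These shares and this median are the background for the counts and medians of the gene lists further on, and a share near them is no result about a list. Each called gene moved the same way in both pairs, and the groups did not overlap for 1837 of the higher and 1669 of the lower genes, which describes genes chosen on these same 4 arrays and is no support for the calls. Of all genes, called or not, 56.3% had groups that did not overlap. Calls began at a difference of 0.43 and had a median size of 0.77. At least 2-fold differences were found for 546 higher and 417 lower genes, and at least 4-fold ones for 57 and 29. Without the treated SKO array 697 and 601 genes were called, without the untreated SKO array 1099 and 954, and without the treated GFP array 806 and 752. SKO day 4 minus GFP gave 972 higher (4.88%) and 579 lower genes (2.90%).

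Moving the same way in both pairs was the description set for this comparison. Some direction was shared by 6301 genes that were higher in both pairs and 7555 that were lower in both, while 6082 split and none of the split genes was called. With at least 1 log2 unit in each pair, 323 genes were higher (1.62%) and 253 lower (1.27%), all of them called. Calls began at 0.43, so the calls of these genes follow largely from how they were picked and are no support. With at least 2 units in each pair, 43 were higher and 13 lower. Across genes, which are not independent replicates, the pair differences had a Pearson r of 0.706. The spread (SD) of the pair difference was 0.468 without and 0.576 with vitamin C. The same-virus arrays were closer, with an SD of 0.345 between the GFP arrays and 0.271 between the SKO arrays.

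**Figure D1:**
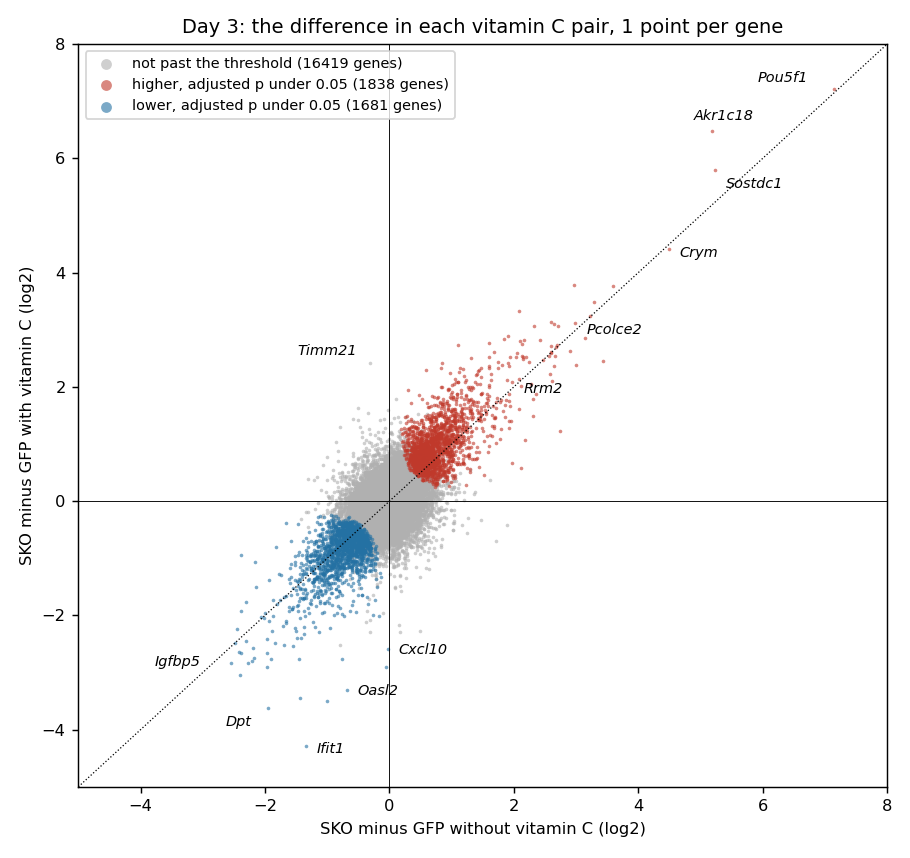
Difference between SKO and GFP cells on day 3 without vitamin C (horizontal axis, log2) and with it (vertical axis, log2), 1 point for each of 19938 genes, with 1838 called higher in red, 1681 called lower in blue, and the dotted line marking equal differences. Pou5f1, Akr1c18, Sostdc1 and Crym stand far out at the upper right, whereas Ifit1, Oasl2 and Cxcl10 lie below the line because their difference was larger with vitamin C.

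Akr1c18, Sostdc1 and Crym, which rose most after Pou5f1, read below the array median in GFP cells. Akr1c18, the steroid dehydrogenase that inactivates progesterone, gave 3.69 and 3.80 in GFP cells and 8.87 and 10.29 in SKO cells. Its difference was 5.83 ± 0.39 (adjusted p = 1e-06), and 6.54 on day 4. No fold is given for Akr1c18 or for Aldh3a1, because their GFP signals are at the low end of the scale. Sostdc1, also called ectodin, which blocks BMP ligands outside the cell, went from 4.70 and 4.79 to 9.93 and 10.59, which is 5.51 ± 0.18 or 45.7-fold (adjusted p = 6.11e-10). No array of one virus came near an array of the other for either gene, both of which were picked for their large difference. Crym, a thyroid hormone-binding protein, went from 4.88 and 4.91 to 9.36 and 9.31 (21.8-fold, adjusted p = 1.90e-09). Aldh3a1, an aldehyde dehydrogenase, went from 4.37 and 4.56 to 7.65 and 8.05 (3.39 ± 0.22, adjusted p = 8.44e-07), and its difference was larger on day 4, at 5.17.

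Receptors and a G protein were among the 25 genes of largest rise. Gna14, a G protein alpha subunit, gave 4.14 and 4.26 in GFP and 7.11 and 8.05 in SKO cells. P2ry1, a receptor for ADP, gave 4.37 and 5.47 against 7.80 and 7.93, the treated GFP array lying above the untreated one. Tshr, the thyrotropin receptor, gave 3.96 and 3.75 against 6.28 and 6.81. The differences of these 3 genes were 3.38 ± 0.22, 2.94 ± 0.33 and 2.69 ± 0.20 (adjusted p = 1e-06, 8.21e-05 and 2.31e-06). Tek, the angiopoietin receptor of endothelium, rose from 4.49 and 4.86 to 7.08 and 7.58, a difference of 2.66 ± 0.17 (adjusted p = 8.44e-07). Gabra2, a GABA receptor subunit, rose by 2.62 ± 0.20 (adjusted p = 3.46e-06).

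Adhesion, matrix and secretory genes were also among the 25. Ceacam1, an immunoglobulin-type adhesion molecule, read 3.65 and 3.67 and then 6.87 and 6.91, the arrays of each virus being nearly equal. Cdh20 and Pcdh10, members of the cadherin superfamily, rose by 2.68 ± 0.15 and 2.60 ± 0.27 (adjusted p = 2.60e-07 and 4.50e-05). Pcolce2, which enhances procollagen C-proteinase, rose by 3.05 ± 0.17 from 5.39 and 5.47 to 8.38 and 8.58 (adjusted p = 2.60e-07). Anxa10, an annexin, went from 2.83 and 2.86 to 5.97 and 5.72 on day 3 (3.00 ± 0.38, adjusted p = 1.76e-04), and its difference on day 4 was 1.40. Scg5, a chaperone of the prohormone convertase PC2, rose by 2.87 ± 0.16, and Iqgap2, a scaffold of the actin cytoskeleton, by 2.60 ± 0.15 (adjusted p = 2.35e-07 and 2.60e-07).

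Of transcription factors, Meox2, a mesodermal homeobox gene, rose from 4.31 and 4.97 to 7.0 and 7.71 (2.71 ± 0.24, adjusted p = 1.28e-05). Hey2, a Notch target repressor, rose from 4.22 and 4.26 to 6.82 and 6.87 (2.60 ± 0.17, adjusted p = 1e-06). Both kept a difference of at least that size on day 4, at 2.83 and 3.43. The remaining genes among the 25 were Tmem229b, Mfsd6, Fam110c, Luzp2 and Strip2, with differences between 2.71 and 3.68, and Usp17ld. Usp17ld, a deubiquitinase of a multigene family whose copies the array may not separate, gave 4.26 and 5.40 against 7.27 and 7.78 (2.69 ± 0.33, adjusted p = 1.37e-04), whereas its day 4 difference was -0.21. Among the 25 it was the only gene whose day 4 difference had the opposite sign.

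In all, 26 genes had low signal in both GFP arrays (under 4.54, the level below which the means of 6646 of the 19938 genes lie) and lay above the median gene (5.49) in both SKO arrays, all of them called. These genes were picked on the same 4 arrays, by levels further apart than the 0.43 where calls began, so their calls are no support. Beside those described, they included Gpr50, an orphan receptor related to melatonin receptors, with 3.23 and 3.50 against 5.79 and 6.04 (2.55 ± 0.66, adjusted p = 0.0168), a call lost without the untreated GFP array and without the treated SKO array. Epha5, a receptor for ephrins, gave 3.74 and 3.76 against 6.20 and 6.24 (2.47 ± 0.18, adjusted p = 3.04e-06). The neutral amino acid transporter gene Slc6a15 rose by 2.44 ± 0.23 and the C2-domain gene Mctp1 by 2.35 ± 0.18 (adjusted p = 2.25e-05 and 3.47e-06). Genes of the opposite kind were fewer, 6 in all, 5 of them with a gene name of their own: Dpt, Enpep, Kcnma1, Clmn and Ptgfr. Kcnma1, a calcium-activated potassium channel, went from 6.32 and 6.32 to 4.39 and 4.21 (-2.02 ± 0.14, adjusted p = 1.50e-06). Kcnma1 has 2 probes, and the one not used here gave a smaller difference of -0.46. Ptgfr, the receptor for prostaglandin F, went from 5.61 and 5.54 to 4.28 and 4.51 (-1.18 ± 0.19, adjusted p = 9.00e-04).

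The named genes of largest fall have diverse roles. Anpep, an aminopeptidase on the fibroblast surface, gave 8.42 and 8.98 in GFP and 6.01 and 5.92 in SKO cells, a fall of 2.73 ± 0.18 or 6.63-fold (adjusted p = 1.22e-06). Enpep, the related glutamyl aminopeptidase, gave 6.48 and 7.04 against 4.21 and 4.20, a fall of 2.55 ± 0.21 (adjusted p = 5.88e-06). Igfbp5, which binds insulin-like growth factors, gave 11.13 and 10.99 against 8.58 and 8.16, a fall of 2.69 ± 0.17 or 6.45-fold (adjusted p = 8.44e-07). These falls were larger than the gap between arrays of one virus, which follows largely from how the genes were picked. Dpt, a matrix protein that binds decorin, gave 6.30 and 8.12 against 4.36 and 4.50, so that the treated GFP array stood far above the untreated one and both stood above SKO cells (-2.78 ± 0.32, adjusted p = 9.28e-05).

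Slc40a1, the iron exporter, gave 8.81 and 8.04 against 6.33 and 5.56 (-2.48 ± 0.31, adjusted p = 1.76e-04), both viruses showing lower signal with vitamin C by a like amount. Agtr2, an angiotensin receptor of fetal mesenchyme, gave 6.99 and 7.79 against 4.55 and 5.56 (-2.34 ± 0.23, adjusted p = 2.91e-05). Cxcl12, a chemokine of stromal cells, gave 9.25 and 9.20 against 7.05 and 6.63 (-2.38 ± 0.25, adjusted p = 4.58e-05). Neither Agtr2 nor Cxcl12 overlapped between viruses, which was also so for 56.3% of all genes. Abi3bp, a matrix protein, fell by 2.34 ± 0.27 (adjusted p = 9.28e-05), Maf, a leucine zipper factor, by 2.15 ± 0.30 (adjusted p = 3.27e-04), and the kinase gene Nrk by 2.04 ± 0.25 (adjusted p = 1.63e-04).

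**Figure D2:**
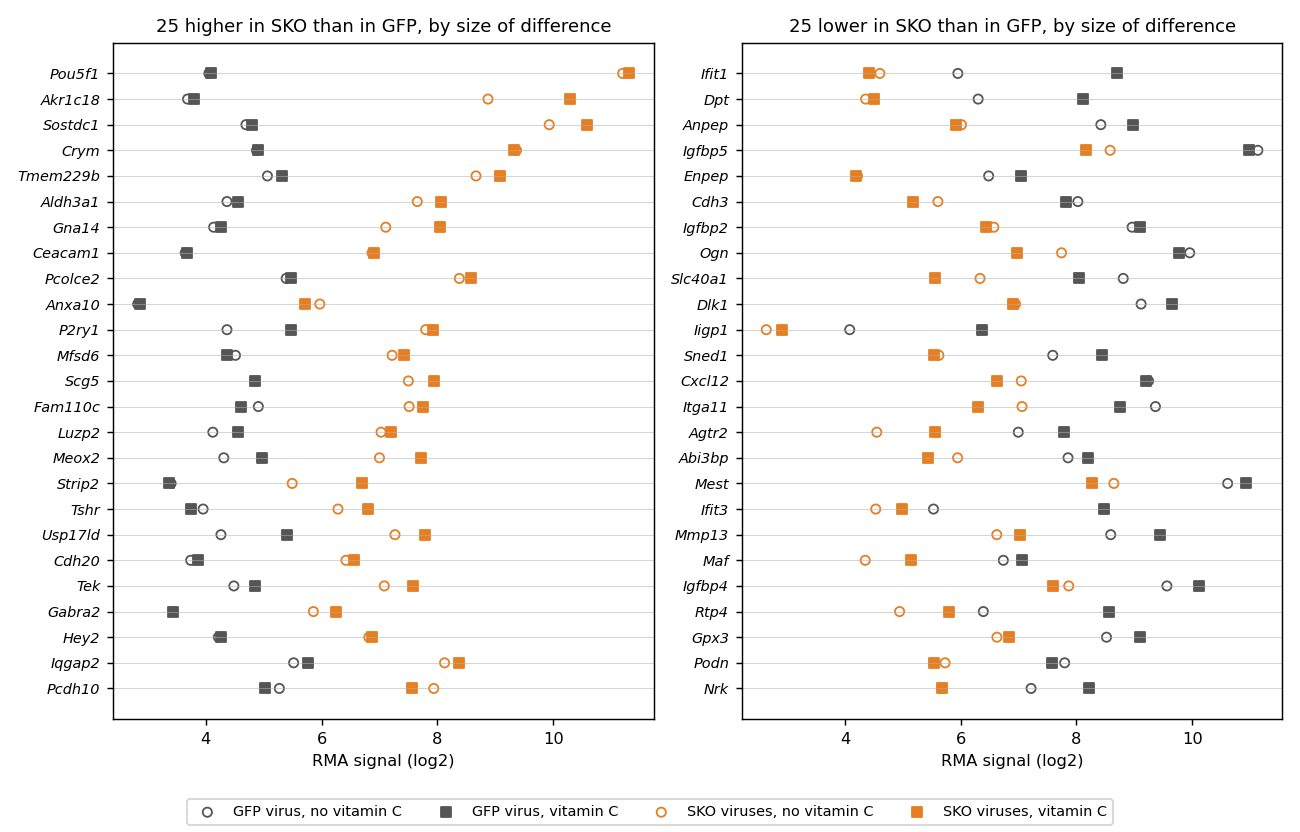
RMA signal (log2, horizontal axis) of the 25 genes with the largest rise (left) and the 25 named genes with the largest fall (right) on each of the 4 day 3 arrays, with GFP in grey, SKO in orange, open circles without and filled squares with vitamin C. No SKO symbol overlaps a GFP symbol of the same gene, which follows largely from how the genes were picked and is no support for them. Groups did not overlap for 56.3% of all genes. Ifit1, Dpt, Iigp1, Ifit3 and Rtp4 show a wide gap between the GFP arrays.

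Genes of cell division rose almost as a body. Of 47 measured mitosis genes, 43 were higher and 0 lower, with a median difference of 1.08, and all 47 had higher signal in SKO cells in both pairs. Of 39 DNA replication genes, 32 were higher and 0 lower, with a median of 0.84, and all 39 were higher in both pairs. Over all genes the corresponding figures are 9.22% higher, a median of -0.04 and 31.6% higher in both pairs. When the test required at least a 1.5-fold difference, 15 mitosis and 7 replication genes were called. Without any 1 of the 4 arrays, 33 to 42 mitosis genes and 16 to 27 replication genes were called, with 33 and 16 when the treated SKO array was left out and 33 and 17 when the treated GFP array was. On day 4 it was 37 and 17, with medians of 0.76 and 0.57.

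In the mitosis list, Bub1, a kinase of the spindle checkpoint, gave 6.63 and 5.75 in GFP cells and 7.76 and 8.08 in SKO cells (1.73 ± 0.24, adjusted p = 3.10e-04). Ncapg, a condensin subunit, gave 6.20 and 5.69 against 7.60 and 7.74 (1.73 ± 0.22, adjusted p = 2.13e-04). Anln, the anillin of the cleavage furrow, gave 7.72 and 7.25 against 9.04 and 9.24 (1.66 ± 0.18, adjusted p = 6.51e-05). All 3 were lower in the treated than in the untreated GFP array and higher in the treated than in the untreated SKO array. Ect2, the exchange factor that starts cytokinesis, Smc2, a condensin core subunit, and Kif11, a spindle motor, rose by 1.62 ± 0.21, 1.46 ± 0.15 and 1.45 ± 0.20 (adjusted p = 2.14e-04, 4.58e-05 and 3.00e-04).

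Replication genes were led by the subunits that make nucleotides and primers. Rrm2, the regulated subunit of ribonucleotide reductase, gave 7.52 and 7.29 in GFP cells and 9.26 and 9.62 in SKO cells (2.04 ± 0.19, 4.11-fold, adjusted p = 2.25e-05). Pola1, the catalytic subunit of DNA polymerase alpha, gave 5.76 and 5.45 against 7.21 and 7.74 (1.86 ± 0.18, adjusted p = 2.78e-05). Pcna, the sliding clamp, gave 8.05 and 8.25 against 9.39 and 9.72 (1.41 ± 0.16, adjusted p = 9.64e-05). In each the SKO arrays were clear of the GFP arrays by over 1 log2 unit. Prim1, the primase subunit, Mcm6, a subunit of the replicative helicase, and Gins1, a helicase cofactor, rose by 1.45 ± 0.25, 1.31 ± 0.15 and 1.28 ± 0.24 (adjusted p = 0.00143, 9.76e-05 and 0.00241). The call for Gins1 was lost without the treated GFP array.

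Promoter windows of these 2 lists, and of the interferon list described further on, were read to show what the sequences hold near the start sites. RefSeq windows (assembly GRCm38.p6) of 300 bases run from 250 before to 50 after the start of a gene. The letters searched on both strands were TTTGAA, the core of the cell cycle homology region found in promoters of mitotic genes, TTTCCCGC or TTTGGCGC, the textbook site of E2F factors, and GAAA repeated after any 2 bases, the spacing of interferon-stimulated response elements. Where a match lies is counted from its first base. The windows below belong to the 2 members of each list with the largest difference among those whose window holds a match, and the match is in capitals.
Ncapg (chr5:45669675-45669974, plus strand): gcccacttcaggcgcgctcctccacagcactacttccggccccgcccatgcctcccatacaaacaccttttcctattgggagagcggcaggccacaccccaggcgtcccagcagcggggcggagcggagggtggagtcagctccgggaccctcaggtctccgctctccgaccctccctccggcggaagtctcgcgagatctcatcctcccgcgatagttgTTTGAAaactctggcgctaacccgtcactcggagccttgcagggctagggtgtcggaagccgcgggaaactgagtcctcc
Anln (chr9:22389157-22389456, minus strand): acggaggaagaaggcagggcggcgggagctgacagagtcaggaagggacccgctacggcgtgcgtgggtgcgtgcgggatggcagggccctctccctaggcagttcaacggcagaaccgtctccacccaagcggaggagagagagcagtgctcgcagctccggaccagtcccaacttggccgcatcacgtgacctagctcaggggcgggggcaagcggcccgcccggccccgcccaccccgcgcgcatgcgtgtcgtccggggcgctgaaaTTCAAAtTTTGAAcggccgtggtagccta
Pola1 (chrX:93632106-93632405, minus strand): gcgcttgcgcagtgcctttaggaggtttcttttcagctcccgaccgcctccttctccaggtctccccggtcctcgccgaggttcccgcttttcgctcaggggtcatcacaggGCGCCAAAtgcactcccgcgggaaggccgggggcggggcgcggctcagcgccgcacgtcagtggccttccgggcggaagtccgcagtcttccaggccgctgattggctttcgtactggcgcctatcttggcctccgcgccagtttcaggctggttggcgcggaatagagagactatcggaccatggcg
Mcm6 (chr1:128359656-128359955, minus strand): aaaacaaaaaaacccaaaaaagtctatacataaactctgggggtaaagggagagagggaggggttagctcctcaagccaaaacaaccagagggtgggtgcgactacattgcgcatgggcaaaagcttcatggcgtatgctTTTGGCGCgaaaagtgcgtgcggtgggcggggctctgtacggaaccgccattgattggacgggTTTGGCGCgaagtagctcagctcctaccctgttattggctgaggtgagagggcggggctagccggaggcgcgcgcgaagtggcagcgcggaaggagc
Ifit1 (chr19:34640639-34640938, plus strand): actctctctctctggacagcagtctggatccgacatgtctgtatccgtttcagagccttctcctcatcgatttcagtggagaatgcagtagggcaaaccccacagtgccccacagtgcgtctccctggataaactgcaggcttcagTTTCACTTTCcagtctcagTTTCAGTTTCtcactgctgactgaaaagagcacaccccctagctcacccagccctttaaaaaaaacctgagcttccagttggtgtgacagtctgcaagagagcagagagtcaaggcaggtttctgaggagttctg
Ifit3 (chr19:34583279-34583578, plus strand): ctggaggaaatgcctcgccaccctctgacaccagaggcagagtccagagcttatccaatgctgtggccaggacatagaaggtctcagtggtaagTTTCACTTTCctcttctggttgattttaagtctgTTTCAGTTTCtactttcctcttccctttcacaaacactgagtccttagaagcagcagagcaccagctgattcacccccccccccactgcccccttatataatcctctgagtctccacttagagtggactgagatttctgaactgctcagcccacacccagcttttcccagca

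The letters TTTGAA were present in 29 of the 39 mitosis windows available (74.4%), against 15.2% of 15614 measured genes and 18.1% of all 27025 genes with a window. In Anln a reverse and a forward copy begin 21 and 28 bases after the start site, while the copy of Ncapg begins 30 bases before it. The E2F letters were present in 11 of 33 replication windows (33.3%), against 2.32% of measured genes and 1.63% of all genes. Mcm6 holds them 110 and 47 bases before the start, and Pola1 holds them once, 138 bases before. The interferon letters were present in 18 of 29 windows of the interferon list (62.1%), against 3.32% and 3.49%. Ifit1 holds them 104 and 85 bases before the start, and Ifit3 holds them 156 and 122 bases before. No match in the 6 windows overlaps another of the motifs searched. Of the 25 genes of largest rise, 21 had a window, and the octamer ATGCAAAT, known as an Oct4 site, was in 0 of them, against 1.72% of measured genes. The KLF letters GGGTGTGG or GGGCGTGG were in 3 of the 21 (14.3%), against 10.9%. At an octamer share as low as 1.72%, finding 0 in 21 windows is no result. The KLF letters were in 20.5% of mitosis, 12.1% of replication and 24.1% of interferon windows. The letters CCAAT, also searched, were in 71.8%, 60.6% and 41.4% of those windows, against 38.2% of measured genes. The shares of the lists cover their members whether called or not. Among all genes called higher with a window, TTTGAA was in 17.3% and the E2F letters in 4.59%. Among all genes called lower, the interferon letters were in 3.79%. These are matches of letters in a short window and not measured binding.

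Regulators upstream of division moved in both directions. Of 20 CDK inhibitors and G1 regulators, 9 were higher and 3 lower, with a median of 0.23. Cdkn1c, the imprinted CDK inhibitor p57, gave 8.99 and 9.97 in GFP cells and 7.63 and 7.77 in SKO cells (-1.79 ± 0.18, adjusted p = 4.36e-05), with the treated GFP array above the untreated one. Ccnd1, cyclin D1, gave 9.41 and 9.78 against 10.69 and 10.82 (1.16 ± 0.16, adjusted p = 3.29e-04). Ccne2, cyclin E2, gave 4.66 and 4.38 against 5.60 and 6.00 (1.28 ± 0.20, adjusted p = 6.84e-04). Rb1, the retinoblastoma protein that restrains entry into S phase, rose as well, from 7.28 and 6.63 to 8.12 and 8.62 (1.42 ± 0.23, adjusted p = 8.74e-04), and its day 4 difference was 2.09. Without the treated GFP array 4 of the list were higher, and without the treated SKO array 5, and 1 was lower without either of them or without the untreated GFP array. Of 21 targets of p53, 2 were higher and 4 lower. Sesn2, a stress-induced inhibitor of growth signalling, fell by 1.11 ± 0.27 and Fas, the death receptor, rose by 1.08 ± 0.18 (adjusted p = 0.0118 and 0.00134). The call for Sesn2 was lost without the untreated GFP array and without the treated SKO array, which left 2 p53 targets lower.

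Many extracellular matrix genes fell. Of 27 collagen chains, 0 were higher and 12 lower (median -0.37). Of 14 small leucine-rich proteoglycans, 1 was higher and 7 lower (median -0.66). Of 35 elastic fibre and matricellular genes, 1 was higher and 17 lower (median -0.57), where 8.43% of all genes were lower. The lower calls numbered 4 to 9, 3 to 6 and 9 to 15 when 1 array was left out, with the fewest without the treated SKO array or, equally for collagens and proteoglycans, without the treated GFP array. Without the treated GFP array 10 elastic fibre genes, and without the untreated SKO array 6 collagens, were lower. Day 4 gave 8, 4 and 14 lower calls.

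Among the collagens, Col5a1 gave 9.78 and 9.67 in GFP cells and 8.57 and 8.31 in SKO cells (-1.28 ± 0.17, adjusted p = 2.61e-04). Col3a1 gave 11.40 and 11.86 against 10.54 and 10.51 (-1.10 ± 0.17, adjusted p = 7.52e-04). Col6a2, a chain of the microfibrillar collagen VI, gave 9.60 and 9.91 against 8.64 and 8.37 (-1.25 ± 0.20, adjusted p = 0.00103). For Col3a1 and Col6a2 the treated GFP array was the highest of the 4 and the treated SKO array the lowest. Ogn, the proteoglycan osteoglycin, went from 9.96 and 9.77 to 7.74 and 6.97 (-2.51 ± 0.37, adjusted p = 5.46e-04). Lum, lumican, went from 8.15 and 10.06 to 6.73 and 7.66 (-1.91 ± 0.32, adjusted p = 0.00109), with vitamin C arrays higher under both viruses. Podn, podocan, went from 7.80 and 7.57 to 5.73 and 5.55 (-2.05 ± 0.14, adjusted p = 1.51e-06). Prelp was the member that rose, from 6.67 and 6.94 to 7.94 and 7.76 (1.05 ± 0.18, adjusted p = 0.00156).

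In the elastic fibre list, Sned1 gave 7.59 and 8.45 in GFP cells and 5.62 and 5.54 in SKO cells (-2.44 ± 0.24, adjusted p = 2.86e-05). Fbln1, fibulin 1, gave 8.50 and 8.70 against 7.15 and 7.15 (-1.45 ± 0.15, adjusted p = 5.49e-05). Mfap4, a microfibril protein, gave 6.44 and 6.89 against 5.06 and 5.2 (-1.53 ± 0.22, adjusted p = 4.67e-04). In all 3, picked for large differences, the SKO arrays were nearly equal and far below GFP cells. Ccn5 and Ltbp2, a matricellular protein and a microfibril-bound relative of the latent TGF-beta binding proteins, fell by 1.52 ± 0.25 and 1.18 ± 0.17 (adjusted p = 0.00116 and 5.26e-04).

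Enzymes that build or cut the matrix split more. Of 25 collagen processing genes, 3 were higher and 11 lower (median -0.41). Loxl1, a lysyl oxidase that cross-links elastin, fell from 9.82 and 10.02 to 8.34 and 8.19 (-1.65 ± 0.17, adjusted p = 4.50e-05). Plod1, a lysyl hydroxylase, fell by 1.05 ± 0.19, and Adamts14, a procollagen N-proteinase, by 1.16 ± 0.20 (adjusted p = 0.00174 and 0.00151). Against that direction, Tll1, a tolloid-like procollagen C-proteinase, rose from 7.03 and 6.72 to 9.27 and 9.16 (2.34 ± 0.16, adjusted p = 1.50e-06), as did its enhancer Pcolce2, given above. Lower calls in this list numbered 4 without the treated GFP array, 5 without the treated SKO array and 7 without the untreated SKO array. Of 23 metalloproteinases and inhibitors, 1 was higher and 11 lower (median -0.63), 5 of them without the treated SKO array. Mmp13, a collagenase, fell from 8.59 and 9.44 to 6.62 and 7.02 (-2.19 ± 0.25, adjusted p = 8.39e-05). Mmp11, Adam19, Mmp2 and Adam12 fell by 1.22 ± 0.16, 1.11 ± 0.18, 1.03 ± 0.15 and 1.0 ± 0.21, the last of them not called without the treated SKO array.

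Mesenchymal identity genes were lowered in part. Of 31 mesenchymal transcription factors, 3 were higher and 13 lower (median -0.38), and 8 were lower on day 4. Snai1, a repressor of epithelial genes, gave 7.56 and 7.94 in GFP cells and 6.22 and 6.29 in SKO cells (-1.49 ± 0.14, adjusted p = 2.68e-05). Meox1 gave 5.84 and 5.23 against 4.07 and 3.96 (-1.52 ± 0.25, adjusted p = 9.73e-04), opposite to its paralog Meox2. Osr1 and Osr2, odd-skipped factors of limb and body wall mesenchyme, fell by 1.06 ± 0.15 and 1.23 ± 0.18, and Ebf3 by 1.03 ± 0.15 (adjusted p = 4.02e-04, 4.83e-04 and 5.62e-04). Leaving out any 1 array left 6 to 7 lower and 1 to 2 higher calls in this list. Of 23 contractile genes, 7 were lower and 0 higher (median -0.46), 2 of them without the treated SKO array and 5 without any other. Mylk, the myosin light chain kinase, gave 6.41 and 6.94 against 5.27 and 5.27 (-1.41 ± 0.25, adjusted p = 0.00165). Smtn, smoothelin, gave 7.95 and 8.19 against 6.91 and 6.89 (-1.17 ± 0.15, adjusted p = 2.51e-04). Against the same GFP arrays of day 3, the contractile genes lower on SKO days 4, 5, 6, 8 and 10 numbered 7, 18, 16, 17 and 20.

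Fibroblast surface markers went both ways: of 23, 8 were higher and 9 lower, with a median of -0.02. Besides Anpep and Enpep, Itga11, the collagen-binding integrin subunit, fell from 9.37 and 8.76 to 7.06 and 6.31 (-2.38 ± 0.35, adjusted p = 5.40e-04). Pdgfra, the PDGF receptor alpha, fell from 9.64 and 10.09 to 8.60 and 8.31 (-1.41 ± 0.21, adjusted p = 5.65e-04). Dpp4, a dipeptidyl peptidase of the same surface, rose from 4.53 and 5.05 to 6.67 and 7.55 (2.32 ± 0.24, adjusted p = 4.58e-05), and Cd34 rose from 6.62 and 7.54 to 8.55 and 8.93 (1.66 ± 0.22, adjusted p = 2.61e-04). On day 4 their differences were 3.05 and 1.77. Higher calls in this list numbered 3 without the treated SKO array, 4 without the untreated GFP array and 5 without the treated one, and lower calls 7 to 8 without any 1 array.

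Epithelial genes showed little of a common rise. Of 37 members, 3 were higher and 2 lower (median -0.04), beside 9.22% and 8.43% of all genes. Low signal in both groups was seen for 8 of them, and 1 was lower without any 1 array. Dsc2 and Dsp, desmosomal proteins, rose from 3.90 and 3.88 to 5.25 and 5.63 and from 5.05 and 4.80 to 5.90 and 6.49 (adjusted p = 4.85e-04 and 0.00113). Cdh3, P-cadherin, fell from 8.02 and 7.82 to 5.61 and 5.17 (-2.53 ± 0.23, adjusted p = 1.64e-05).

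**Figure D3:**
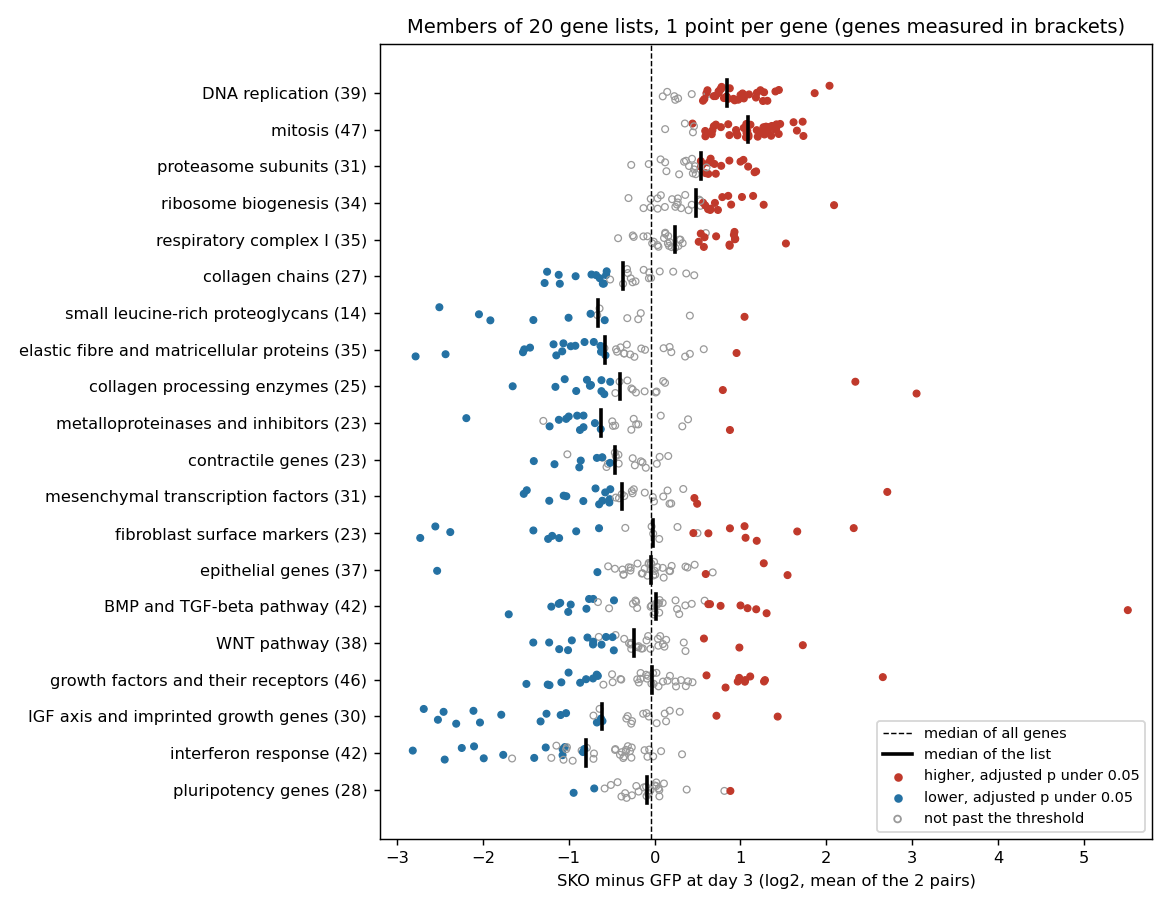
SKO minus GFP difference on day 3 (log2, mean of both pairs) of the members of 20 gene lists, 1 point per gene, filled red or blue where limma's adjusted p was under 0.05, with a black bar at the list's median and a dashed line at the median of all genes (-0.04). Mitosis and DNA replication lie to the right, matrix, IGF and interferon lists to the left, and epithelial and pluripotency genes around the dashed line.

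Secreted signals and their receptors changed member by member. In the BMP and TGF-beta pathway, 8 of 42 genes were higher and 10 lower (median 0.02). Of the ligands, Tgfb2 fell by 1.12 ± 0.16 from 7.95 and 7.57 to 6.80 and 6.48 (adjusted p = 4.66e-04). Of the receptors, Tgfbr3, the co-receptor betaglycan, fell from 8.62 and 9.03 to 7.15 and 7.11 (-1.70 ± 0.18, adjusted p = 4.75e-05). Tgfbi, a matrix protein induced by TGF-beta, fell by 1.20 ± 0.21 (adjusted p = 0.00138). Among inhibitors beside Sostdc1, Fst, follistatin, which binds activins, rose from 7.78 and 7.92 to 8.75 and 9.31 (1.18 ± 0.23, adjusted p = 0.00315), a call lost without the treated SKO array. Skil, the SMAD-binding repressor SnoN, rose from 7.24 and 6.29 to 8.26 and 7.88 (1.30 ± 0.18, adjusted p = 3.15e-04).

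In the WNT pathway 3 of 38 genes were higher and 12 lower (median -0.24), and 4 to 6 lower calls were left without any 1 array, the fewest without the treated GFP array. On day 4, 4 were lower and the median was 0.04. Wnt2, a ligand, rose from 4.92 and 5.19 to 6.63 and 6.93 (1.73 ± 0.18, adjusted p = 5.24e-05). Rspo2, which potentiates WNT receptors, fell by 1.23 ± 0.33, and Fzd1, a receptor, by 1.11 ± 0.15 (adjusted p = 0.0201 and 3.48e-04). Of the 4 fits that each leave out 1 day 3 array, only the one without the untreated SKO array called Rspo2. Dkk3, a secreted member of the dickkopf family, fell from 8.47 and 8.72 to 7.26 and 7.10 (-1.41 ± 0.16, adjusted p = 8.21e-05). Sfrp1, a secreted antagonist, gave 9.09 and 9.48 against 8.24 and 8.30 on day 3 (-1.01 ± 0.16, adjusted p = 8.44e-04) and a difference of -0.09 on day 4. Among 46 growth factors and receptors 10 were higher and 10 lower, 6 of them without the treated GFP array or either SKO array. Vegfd, a lymphatic growth factor, and Egfr, the EGF receptor, fell by 1.49 ± 0.17 and 1.25 ± 0.15, while Angpt1, the ligand of Tek, rose by 1.29 ± 0.24 and Dusp4, a phosphatase of MAP kinases, by 1.27 ± 0.24 (adjusted p = 7.26e-05, 1.54e-04, 0.00218 and 0.00254).

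Many genes of the insulin-like growth factor (IGF) axis and imprinted growth genes fell. Of 30 measured, 2 were higher and 14 lower, with a median of -0.62, and 10 to 13 were lower without 1 array. On day 4, 11 were lower. Among the binding proteins, Igfbp2 gave 8.96 and 9.10 in GFP and 6.57 and 6.44 in SKO cells (-2.52 ± 0.25, adjusted p = 3.48e-05), and Igfbp4 gave 9.56 and 10.12 against 7.87 and 7.60 (-2.11 ± 0.19, adjusted p = 1.60e-05). Among paternally expressed genes, Dlk1, a Notch-like inhibitor of differentiation, gave 9.12 and 9.65 against 6.95 and 6.91 (-2.46 ± 0.22, adjusted p = 1.64e-05). Mest gave 10.61 and 10.93 against 8.65 and 8.27 (-2.31 ± 0.17, adjusted p = 3.04e-06). In these 4, picked for large differences, both GFP arrays stood well above both SKO arrays. Chosen after its values were seen, Igfbp3 is a binding protein that rose, from 9.34 and 9.29 to 10.81 and 10.69 (1.43 ± 0.18, adjusted p = 2.04e-04).

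Part of the interferon response genes were lower in SKO cells, and the median difference was larger in the pair with vitamin C, although no gene passed the test of the gap between pairs given further on. Of 42 measured members, 13 were lower in SKO cells and 0 higher, with a median of -0.80, and 32 were lower in both pairs. Over all genes 8.43% were called lower and 37.9% read lower in both pairs. The median difference was -0.22 in the untreated and -1.16 in the treated pair. The mean signal of the list was 5.59 in the untreated and 6.82 in the treated GFP array, against 5.28 and 5.42 in SKO cells. Only 1 member was called lower without the treated GFP array, 2 without the treated SKO array, 13 without the untreated GFP array and 20 without the untreated SKO array. The count also depended on the model. Other array sets, scalings, filters, variance models and probe rules, or no vitamin C term, gave 2 to 24 lower calls, and a minimum of 1.5-fold gave 0. On day 4, 8 were lower and 1 higher.

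Ifit1, an antiviral protein that binds foreign RNA ends, gave 5.95 and 8.70 in GFP cells and 4.60 and 4.42 in SKO cells (-2.82 ± 0.61, adjusted p = 0.00603). Ifit3 gave 5.53 and 8.48 against 4.53 and 4.99 (-2.25 ± 0.59, adjusted p = 0.0188). Rtp4 gave 6.39 and 8.55 against 4.94 and 5.8 (-2.10 ± 0.51, adjusted p = 0.0118). In each, the treated GFP array was over 2 log2 units above the other 3 arrays, and the untreated GFP array still lay above both SKO arrays. Iigp1, a GTPase that acts on parasite vacuoles, and Irf7, the factor that amplifies interferon induction, gave 4.08 and 6.36 against 2.64 and 2.91, and 5.71 and 7.75 against 4.94 and 4.99 (adjusted p = 0.00615 and 0.00643). Of 17 antigen presentation genes, 3 were lower and 0 higher, and 0 were lower without the treated GFP array or without the treated SKO array. Tapbp, tapasin, fell by 0.88 ± 0.17 and Psmb8, an immunoproteasome subunit, by 0.99 ± 0.28 (adjusted p = 0.00342 and 0.027). Each call named in this paragraph was lost without the treated GFP array and without the treated SKO array.

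**Figure D4:**
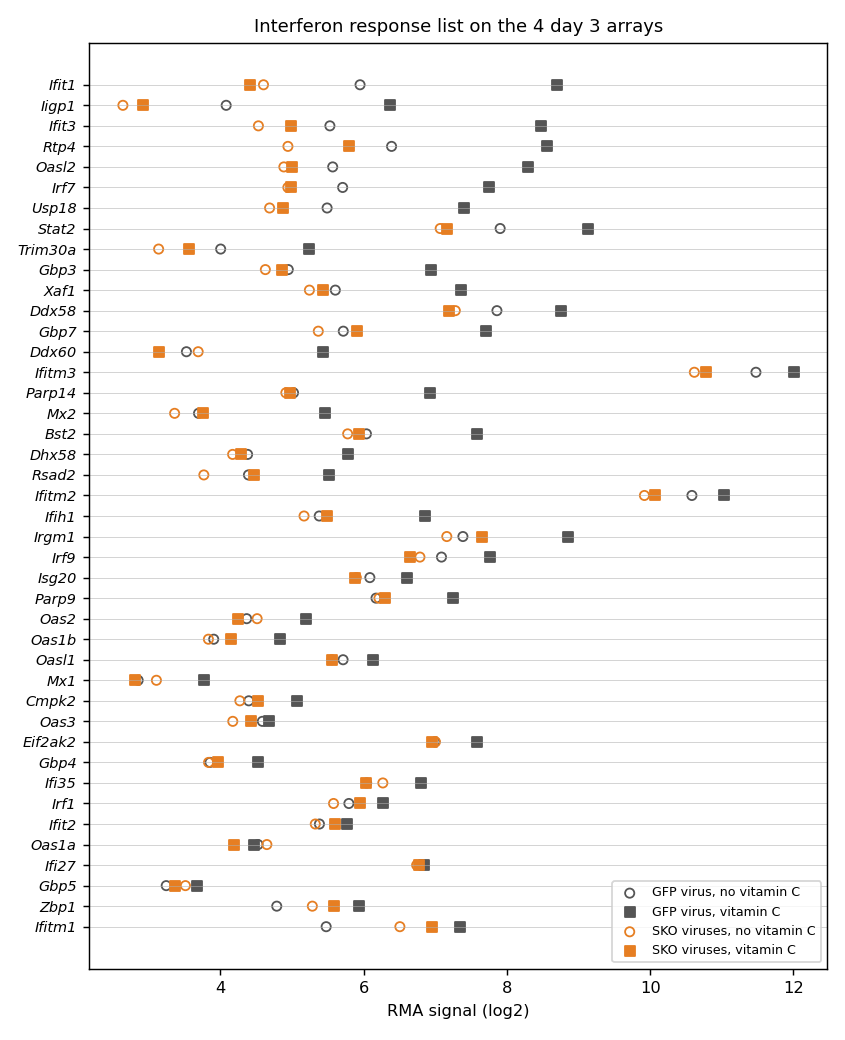
RMA signal (log2, horizontal axis) of the 42 measured interferon response genes on the 4 day 3 arrays, ordered by the SKO minus GFP difference, with GFP in grey, SKO in orange, open circles without and filled squares with vitamin C. The filled grey square of the treated GFP array is the highest symbol of 41 of the 42 genes, and the list's mean was 6.82 there and between 5.28 and 5.59 on the other arrays.

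Whether the pairs differ from each other was tested for every gene, with the spread taken from the 5 later SKO days (4 residual degrees of freedom). No gene had an adjusted p under 0.05 in limma, and 917 had an unadjusted p under 0.05 (4.6%). The lowest adjusted p was 0.131, for Cxcl10, an interferon-induced chemokine with 4.47 and 6.76 in GFP cells and 4.44 and 4.18 in SKO cells. Its pair difference was -0.03 without and -2.58 with vitamin C. Ifi203, Oasl2 and Ddx60, also induced by interferon, had gaps between the pairs of -2.86, -2.62 and -2.45 and did not pass, and their mean differences over both pairs were -1.48, -1.99 and -1.06. The widest gap of the other sign was that of Timm21, a mitochondrial import protein, with 5.43 and 4.15 in GFP cells and 5.11 and 6.57 in SKO cells. On simulated data this test recovered 10.4% of gaps of 1 unit and 91% of gaps of 2 units. The simulated gaps were put on genes drawn at random, so these shares need not hold for genes of wide spread. Ifi203, Oasl2 and Ddx60 had gaps beyond 2 units and still did not pass. Gaps of about 1 unit were mostly not detectable in this design.

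Many genes of housekeeping machineries were called higher on day 3 and none of them on day 4, a difference between days that was not tested itself. Of 31 proteasome subunits 16 were higher (median 0.54), of 34 ribosome biogenesis genes 14 (median 0.48), and of 35 subunits of respiratory complex I 12 (median 0.24), with 0 lower in each list. On day 4 there were 0 higher and 0 lower calls in each, with medians of 0.04, 0.02 and -0.02. The proteasome list averaged 8.35 on both GFP arrays, 8.89 and 8.91 on the SKO arrays of day 3, 8.39 and 8.35 on day 4, and 8.71 on both arrays of day 5. Without 1 array the higher calls were 4 to 9, 3 to 13 and 4 to 8, the fewest without the treated SKO array for proteasome and complex I and without the treated GFP array for ribosome biogenesis. The day 3 and day 5 arrays, on which the proteasome mean was highest, are also those lowest on the second principal component, and the part of that component in these lists was not tested.

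Psma1, a subunit of the proteasome core, gave 8.29 and 8.20 in GFP cells and 9.37 and 9.48 in SKO cells (1.18 ± 0.17, adjusted p = 5.12e-04), with 0.07 on day 4. Rrs1, a factor in assembly of the large ribosomal subunit, gave 6.11 and 5.71 against 7.85 and 8.14 (2.09 ± 0.27, adjusted p = 1.87e-04), with 0.60 on day 4. Ndufb6, a complex I subunit, gave 8.46 and 8.21 against 9.80 and 9.93 (1.53 ± 0.18, adjusted p = 9.63e-05), with 0.48 on day 4. For the 3 genes the difference of day 4 was far smaller and did not pass (adjusted p = 0.917, 0.241 and 0.14). The mitosis list kept 37 higher calls on day 4, but its median difference also dipped, from 1.08 on day 3 to 0.76 on day 4, with 0.95 on day 5. By day 10 its mean was 6.77 without and 6.80 with vitamin C, close to the 6.71 and 6.49 of GFP cells. On that day 7 mitosis genes were higher and 3 lower.

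**Figure D5:**
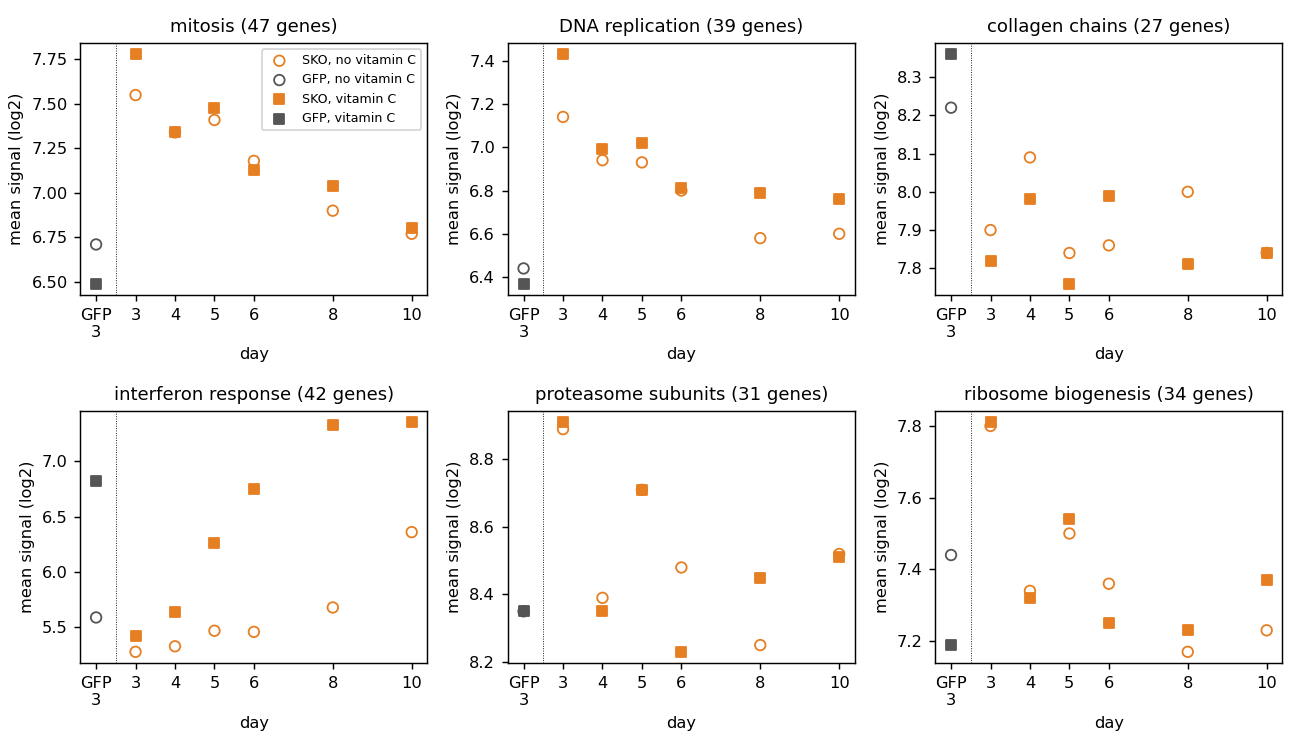
Mean signal (log2, vertical axis) of 6 gene lists on each of the 14 arrays, with the GFP arrays of day 3 (grey) left of the dotted line and the SKO arrays (orange) by day, open circles without and filled squares with vitamin C. Mitosis and DNA replication are highest on day 3, the interferon list is high on the treated GFP array (6.82) and on the treated SKO arrays of days 8 and 10 (7.33 and 7.35), and the proteasome list is at 8.89 and 8.91 on day 3 against 8.39 and 8.35 on day 4.

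Calls among the cells' own pluripotency genes were few and not more frequent than over all genes. Of 28 measured members, 1 was higher and 2 lower, with a median of -0.08, beside 9.22% higher, 8.43% lower and a median of -0.04 over all genes, and 11 of them had low signal in both groups. L1td1, an RNA-binding protein of stem cells, gave 4.88 and 4.75 in GFP cells and 5.55 and 5.85 in SKO cells (0.88 ± 0.20, adjusted p = 0.00912). Dppa5a gave 3.32 and 3.81 against 4.45 and 4.30, and its difference of 0.81 ± 0.36 did not pass (adjusted p = 0.15). Tet1, a DNA demethylating dioxygenase of stem cells, was lower in SKO cells, with 6.27 and 5.99 against 5.27 and 5.11 (-0.94 ± 0.20, adjusted p = 0.00478). Named here because the network is built around it, and not by size of difference, Nanog gave 5.32 and 5.36 against 5.32 and 5.41, with overlapping groups and an adjusted p of 0.977. The call for L1td1 was lost without the treated GFP array and without the untreated SKO array, and that for Tet1 without the untreated GFP array and without the treated SKO array.

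Relatives of the delivered factors fell or rose singly, 2 higher and 4 lower of 15. Sox4 gave 9.34 and 9.33 in GFP cells and 7.95 and 7.61 in SKO cells (-1.55 ± 0.20, adjusted p = 2.51e-04), and Sox9, the factor of cartilage, gave 7.20 and 7.22 against 6.03 and 5.89 (-1.25 ± 0.18, adjusted p = 4.63e-04). Sox11 rose by 0.96 ± 0.19, and Myc, the factor often added as the fourth in reprogramming, rose from 7.90 and 7.16 to 8.37 and 8.51 (0.91 ± 0.23, adjusted p = 0.0162). Klf2 fell by 0.82 ± 0.17 (adjusted p = 0.00437). The calls for Sox11, Myc and Klf2 were lost without the treated GFP array and without the treated SKO array.

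Marker lists of other lineages had low means, with single genes standing out. Of 19 neural markers 6 were higher and 0 lower (median -0.03), with a list mean of 5.02 and 5.14 in GFP cells and 5.39 and 5.47 in SKO cells. Gap43, a growth cone protein, gave 7.27 and 7.70 against 9.55 and 9.76 (2.17 ± 0.29, adjusted p = 2.79e-04). Stmn2, a microtubule regulator of neurites, gave 7.51 and 7.94 against 9.87 and 9.82 (2.12 ± 0.22, adjusted p = 4.03e-05). Syt1, a synaptic vesicle protein, and Nefl, a neurofilament, rose by 1.44 ± 0.20 and 1.16 ± 0.30 (adjusted p = 3.24e-04 and 0.0169), while 7 neural markers had low signal in both groups. When 1 array was left out, Nefl was called only without the untreated GFP array. Hbb-y, an embryonic globin, rose from 4.60 and 4.07 to 6.76 and 6.88 (2.49 ± 0.23, adjusted p = 2.18e-05), the only call of 8 erythroid markers. Gata1, the erythroid factor, gave 4.62 and 4.52 against 4.43 and 4.28. Tek was likewise the single higher call of 18 endothelial markers, of which 2 were lower (median -0.18). Pecam1, Cdh5 and Kdr, the defining endothelial genes, named for their role, read between 3.73 and 4.61 on the 4 arrays (Pecam1 4.10 and 4.42 in GFP cells, 3.99 and 4.31 in SKO cells). The part of other cell types in these values was not tested. Des, desmin, fell from 7.22 and 7.66 to 5.85 and 5.34 (-1.84 ± 0.22, adjusted p = 1.07e-04), and of 14 adipocyte markers 4 were lower and 0 higher, with 0 lower without the treated GFP array or without the treated SKO array, 1 without the untreated GFP array and 2 without the untreated SKO array. Of 19 macrophage markers 1 was lower and 0 higher, and of 12 cartilage and bone markers 2 were lower.

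Metabolic and protective enzymes changed singly. Of 33 aldo-keto reductases and aldehyde dehydrogenases 5 were higher and 5 lower. Beside Akr1c18 and Aldh3a1, Akr1c14 rose from 4.35 and 4.72 to 5.76 and 6.13 (1.42 ± 0.23, adjusted p = 9.54e-04). Aldh1l1, a folate enzyme, gave 5.34 and 7.27 against 5.18 and 5.27 (-1.09 ± 0.30, adjusted p = 0.0231), the treated GFP array alone standing apart, and its call was lost without that array and without the treated SKO array. Of 38 genes of the NRF2 and glutathione list 7 were higher and 4 lower. Gpx3, the secreted glutathione peroxidase, fell from 8.52 and 9.10 to 6.62 and 6.83 (-2.08 ± 0.19, adjusted p = 1.67e-05), whereas Gsta4, a glutathione transferase, rose from 7.47 and 7.87 to 9.15 and 9.15 (1.48 ± 0.17, adjusted p = 7.78e-05). Of 35 glycolysis and HIF target genes 4 were higher and 9 lower. Slc2a3, a glucose transporter, rose from 5.79 and 5.22 to 7.13 and 7.20 (1.66 ± 0.19, adjusted p = 9.32e-05), and Ndrg1, a hypoxia-induced gene, fell by 1.05 ± 0.15 (adjusted p = 3.81e-04). Higher calls among reductases and dehydrogenases were 3 without the treated SKO array. Without the treated SKO array 1 glycolysis and HIF gene, 1 reductase or dehydrogenase and 2 NRF2 genes were lower. Without the untreated GFP array the lower calls in these lists were 4, 3 and 2, and without the treated GFP array 2 reductases or dehydrogenases were lower. Higher calls in the NRF2 list were 4 without the treated SKO array.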

How the data were processed

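Gene expression was measured on 14 Affymetrix whole-transcript arrays from 100 ng of total RNA each. The authors deposited log2 values made with RMA, which corrects background, normalizes arrays to 1 distribution and summarises probes. Per the submitters' processing notes RMA and Partek were used, with versions not given in the sources used here. RMA compresses differences of weak genes. Of 28853 probes, the one of highest mean stood for each of 19938 genes. Linear models were fitted with limma 3.58.1 in R 4.3.3 over all 14 arrays, with 7 virus-by-day levels and a vitamin C term, and p-values were adjusted by Benjamini-Hochberg. Each condition is 1 array, and their number limits the precision. The test was run on simulated data, where it recovered 1.5% of differences of 0.5, 79.1% of 1 and 100% of 2 log2 units, with 5.51% of calls false. Few genes were changed in the simulation, whereas 17.6% of all genes were called in the data, so the recovered shares do not carry over. The simulated noise followed the fitted model, so the share of false calls is no check on having 1 array per condition.

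The 42 gene lists, the comparison and the rule for naming genes were chosen with earlier results of these data known. Named were the delivered factors, 25 called genes of largest difference each way, up to 6 of largest difference per list, 6 of largest gap between pairs each way, and 15 each way that crossed from low signal to above the median, leaving out clone names, predicted genes, histone genes and small RNAs. Alternatives were other array sets, normalizations, filters, variance models, probe rules, a minimum of 1.5-fold, each array left out and other SKO days. Sequences are RefSeq promoter windows, matched by symbol for 15614 measured genes.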

Additional observations from a re-analysis of the deposited data

How the results depend on the processing

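Depth here is signal over background, and low signals limit what can be seen: weak genes differ less on this scale. The counts rest on 1 array per condition. Without 1 array, between 697 and 1530 genes were higher and between 601 and 1228 lower. Requiring at least a 1.5-fold difference in the test left 210 higher and 118 lower genes. Among the lists it left 15 mitosis and 7 replication genes higher, and 9 IGF axis and imprinted genes and 1 collagen chain lower. It left 0 proteasome subunits higher and 0 interferon genes lower. At least 0.5 in each pair gave 1439 higher and 1280 lower genes, and at least 2 gave 43 and 13. Other array sets, scalings, filters, variance models and probe rules gave 1606 to 2123 higher and 1424 to 1968 lower genes. Leaving out weak genes gave 1 gene whose difference was lower with vitamin C, against 0. The labels carry no replicate numbers, so none could serve as a block. The pairing used is by vitamin C, a term of the reported fit, and without that term 1606 genes were higher and 1424 lower.

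With SKO day 4 in place of day 3, 972 genes were higher and 579 lower, and with day 6, 986 were lower. Days 5 and 10 were added after seeing the data. Of the named genes (160, or 152 where weak genes were left out), none was counted as turning direction under the settings run other than another SKO day. A turn was counted only for a gene called in the reported fit or under the other setting. The cause of the turns on other days was not tested. Usp17ld read -0.21 on day 4. Ifi203 read 0.58, 0.67, 1.45 and 2.13 on days 5, 6, 8 and 10. Irf7 read 0.14, 0.50 and 0.64, Sfrp1 0.44, 0.69 and 0.50, and Tapbp 0.29, 0.49 and 0.48 on days 6, 8 and 10. Oasl2 read 0.49 and 1.09, and Rtp4 0.28 and 0.69, on days 8 and 10. Tet3 read 0.24 and 0.19 on days 6 and 8, and Osr2 0.064 on day 8. Lum read 0.31, Ifit1 0.014, Ifit3 0.046 and Psmb8 0.009 on day 10.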

Other observations

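Chromatin genes that take part in the later steps of reprogramming changed singly. Of 17 TET enzymes, DNA methyltransferases and related genes, 3 were higher and 2 lower (median 0.00). Of these, 0 were higher without the treated GFP or the treated SKO array and 1 without either untreated array. Lower calls were 1 without the untreated GFP array or the treated SKO array. Tet3 gave 6.81 and 6.57 in GFP cells and 5.70 and 5.58 in SKO cells (-1.05 ± 0.22, adjusted p = 0.00478 in limma), and its day 4 difference was -0.04. Of 37 histone demethylases and Polycomb genes, 6 were higher and 4 lower (median 0.04), with 1 higher without the treated GFP array or without the treated SKO array and 3 without the untreated SKO array. Lower calls in it were 1 without the treated SKO array and 2 without any other. Ezh2, the Polycomb methyltransferase, rose from 7.27 and 6.96 to 8.21 and 8.42 (1.20 ± 0.20, adjusted p = 0.00103), and Kdm6b, a demethylase of the mark Ezh2 sets, fell from 7.99 and 7.43 to 7.0 and 6.47 (-0.98 ± 0.18, adjusted p = 0.00187). Of 37 Hox genes, which record position along the body, 1 was higher and 3 lower (median -0.23), and 20 read lower in both pairs. Over all genes 9.22% were higher, 8.43% lower and 37.9% lower in both pairs, so the Hox calls were no more frequent than those of all genes. Hoxb9 gave 8.56 and 8.11 against 7.51 and 7.29 (-0.94 ± 0.16, adjusted p = 0.00129), and Hoxc8 gave 8.10 and 8.18 against 7.10 and 7.41 (-0.89 ± 0.17, adjusted p = 0.00279).

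Some lists varied with vitamin C in GFP cells as much as between viruses. The 33 ATF4 and amino acid genes averaged 7.61 and 6.71 in GFP cells and 7.33 and 6.85 in SKO cells, with 3 higher and 4 lower calls. Slc7a5, a large amino acid transporter subunit, gave 10.45 and 8.54 against 8.79 and 8.15, with overlapping groups (adjusted p = 0.0453). Of the 4 fits that each leave out 1 day 3 array, the one without the treated GFP array passed for Slc7a5 and the other 3 did not, while 0 of the list were lower without the untreated GFP array, 8 without the treated GFP array and 1 without either SKO array. Higher calls in it were 5 without the untreated GFP array and 1 without the treated GFP or the untreated SKO array. The 29 sterol and fatty acid genes averaged 8.19 and 8.78 in GFP cells and 8.54 and 8.65 in SKO cells, with 4 higher and 1 lower calls, and 0 higher without the untreated GFP array or without the untreated SKO array and 1 without the treated SKO array. Of 41 chemokine, cytokine and complement genes, 8 were higher and 7 lower, with 3 lower without the treated GFP array, 4 without the untreated SKO array and 2 without the treated SKO array. Cd55, a complement inhibitor, gave 3.87 and 5.38 against 6.62 and 6.6 (1.99 ± 0.39, adjusted p = 0.00323), and Ptgs2, the inducible cyclooxygenase, gave 8.39 and 8.03 against 9.74 and 9.71 (1.52 ± 0.27, adjusted p = 0.0016).

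A further 7064 probes had no single gene symbol. Of these, 55 were at least 1 log2 unit higher and 47 at least 1 lower in both pairs. Of 249 called genes with several probes, all probes pointed the same way for 212.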
